A study of Mus musculus with 6 samples.

Results

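The meningeal and fibroblast genes are 10 genes by which cells of the brain's coverings can be recognised in whole-brain RNA: Col1a1, Col1a2, Col3a1, Dcn, Lum, Ogn, Mgp, Foxc1, Slc6a13 and Aldh1a2. They were chosen by symbol, as every probe set annotated to exactly 1 gene among these names, which gave 17 probe sets of the 34945 that have 1 gene, and 10 genes of 18193. The data are 6 Affymetrix arrays, each of the whole brain of a different male mouse aged 2 months: 3 brains of mice heterozygous for a knockout of periphilin (gene Pphln1) and 3 of their wild-type littermates, labelled C57BL/6. The brains were snap-frozen after dissection, and the labels do not say how much of the meninges stayed on them. The site of the disruption in the gene, and the strain that carries it, are not given in the labels.

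The meninges are layers of fibroblasts and matrix that wrap the brain, the dura outside and the arachnoid and pia within, and fibroblasts of the same kind also follow large vessels into the tissue. These cells lay down fibrillar collagen and the small proteoglycans that space its fibrils. They also move solutes between blood, cerebrospinal fluid and brain, and they release retinoic acid and other signals to the neural tissue below. Periphilin belongs to HUSH, a protein complex that represses retroelements through heterochromatin. The study compared the expression profiles of heterozygous knockout brains with those of littermates.

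None of these genes differed between the genotypes by the test. The signal of the type I collagen genes instead differed between single arrays of both genotypes, each from a different brain. It was highest on heterozygous 3 and wild type 2. The gene of the transcription factor Foxc1 was the only one of them whose genotypes did not overlap at a tested probe set. The signal there was higher in heterozygous brains and did not pass the threshold, and at the other Foxc1 probe set the genotypes overlapped. This was 1 of 14 tested probe sets, where 10.2% of all tested probe sets had no overlap.

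The values are deposited probe-set intensities in arbitrary units, scaled to 1 common level on every array, and array medians lay between 31.2 and 34.5. A probe set with a mean no higher than the 40th percentile (a signal of 18.4) counted as dim and was not tested. Differences are of log2(intensity + 16), heterozygous minus wild type, tested with limma and adjusted by Benjamini-Hochberg over all 27022 tested probe sets with a threshold of 0.05. Precision is limited by the number of arrays, 3 in each genotype. Pphln1 itself did not pass at either probe set (0.08, SE 0.11, and -0.36, SE 0.18). At the second, 1435766_at, its genotypes did not overlap, with 30.6 to 44.4 in heterozygous and 46.3 to 63.2 in wild-type brains. All 9 general markers of brain tissue matched here were above the dim limit on average, and every one of the 10 meningeal and fibroblast genes had at least 1 probe set above it. The dim probe sets were 1446326_at of Col1a2 (4.07 to 10.8 over the 6 arrays), 1427884_at of Col3a1 (5.15 to 16.6) and 1441506_at of Dcn (1.03 to 18.8), which left 14 tested.

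**Figure D1:**
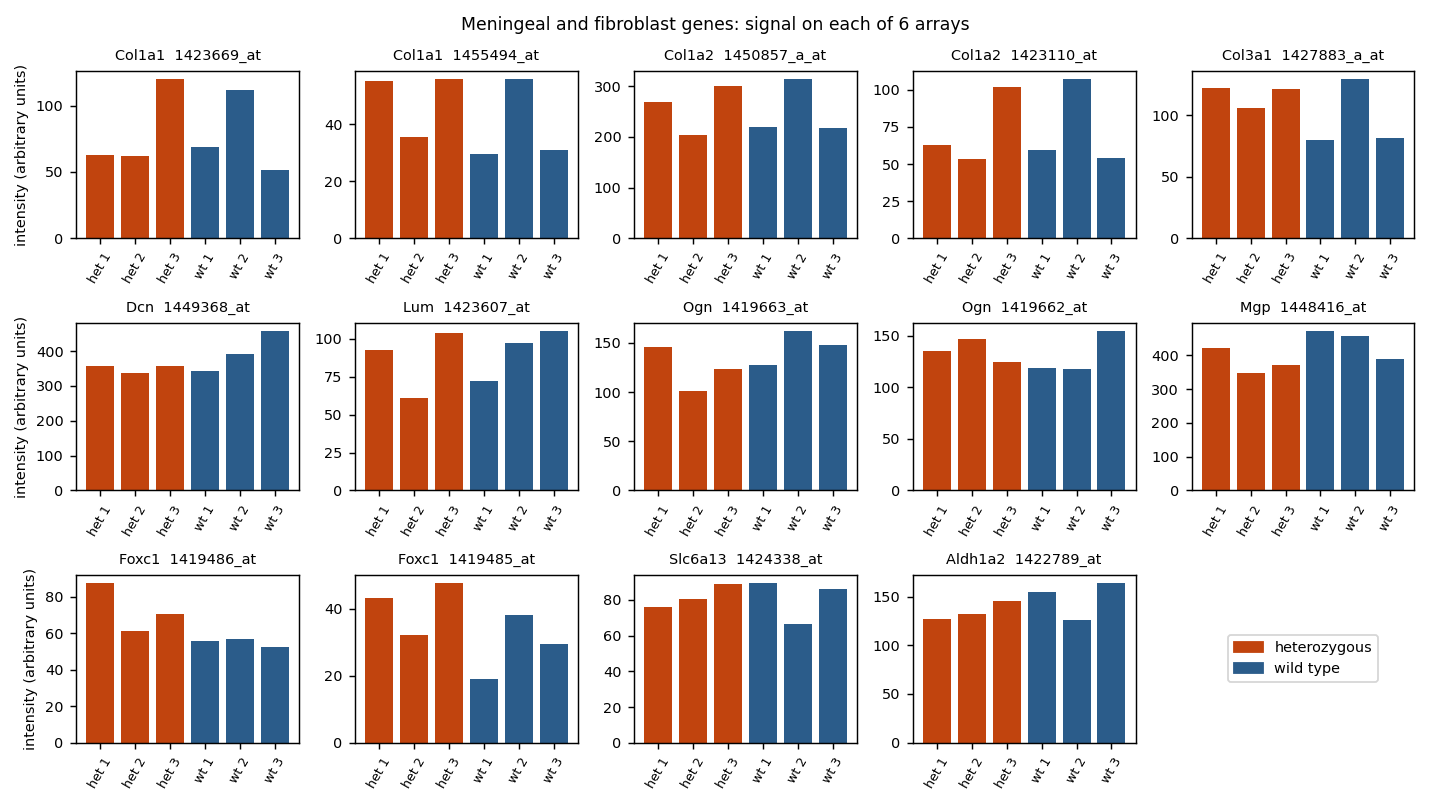
Intensity (arbitrary units, axes from 0) of the 14 tested probe sets on each of the 6 arrays, heterozygous (het) in red and wild type (wt) in blue, 1 bar per brain. The Col1a1 and Col1a2 probe sets are highest on het 3 and wt 2, and Foxc1 1419486_at is higher on every heterozygous array, at 61.1 to 87.6, than on any wild-type array, at 52.6 to 56.8.

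The first question was how the fibrillar collagens behaved. Col1a1 and Col1a2 encode the chains of type I collagen, the main fibre of the dura, and Col3a1 the chain of type III collagen, which accompanies it in pliable tissue. At 1423669_at, Col1a1 measured 63.0, 62.4 and 120.4 in heterozygous 1 to 3 and 69.2, 111.8 and 51.3 in wild type 1 to 3. Heterozygous 3 and wild type 2 were high, the other 4 arrays lay between 51.3 and 69.2, and the genotypes overlapped. The genotype means were 81.9 ± 33.3 and 77.4 ± 31.1 (SD, n = 3 each), and the log2 values differed by 0.07 (SE 0.26, limma adjusted p = 0.988). Its sign turned without heterozygous 3 (-0.20) and without wild type 3 (-0.14). At the dimmer 1455494_at, Col1a1 measured 55.2, 35.7 and 56.0 in heterozygous and 29.7, 55.9 and 30.9 in wild-type brains. Here heterozygous 1 joined heterozygous 3 and wild type 2 on the high side, and the difference was 0.26 (SE 0.22).

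For Col1a2, 1450857_a_at measured 268.8, 203 and 300.2 in heterozygous and 219.5, 315 and 217.9 in wild-type brains. Wild type 2 and heterozygous 3 were again highest, followed by heterozygous 1, and the genotypes overlapped. The difference was 0.04 (SE 0.17, limma adjusted p = 0.989). The second tested probe set of Col1a2, 1423110_at, measured 63.1, 53.4 and 102.2 against 59.5, 107.6 and 54.1. It put all 6 arrays in the same order as 1450857_a_at, with a difference of -0.0039 (SE 0.25).

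At 1427883_a_at, Col3a1 measured 121.9, 105.8 and 121.5 in heterozygous and 79.6, 129.6 and 81.2 in wild-type brains. Wild type 1 and 3 were low and wild type 2 was the highest of all, so the genotypes overlapped. The difference was 0.26 (SE 0.17, limma adjusted p = 0.956), a ratio of 1.20 with a 95% confidence interval of 0.921 to 1.55. The 2 highest arrays at Col1a1 1423669_at differed from the lowest by up to 2.03-fold on the log2(intensity + 16) scale, a range over arrays wider than that of 94.1% of all tested probe sets. At the dimmer Col1a1 probe set, 1455494_at, the range was wider than that of 76.2%. The range of Col1a2 was wider than that of 69.7% by 1450857_a_at and of 88.0% by 1423110_at, and the range of Col3a1 than that of 70.9%.

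Heterozygous 1, heterozygous 3 and wild type 2 were the 3 highest arrays at 5 of the 14 tested probe sets: 1455494_at of Col1a1, both of Col1a2, 1427883_a_at of Col3a1 and 1419485_at of Foxc1. These 3 arrays were singled out after the values were seen, several of the 5 probe sets share a gene, and 4.17% of all 27022 tested probe sets had the same 3 arrays on top. Pituitary and blood genes also differed between arrays. Prl, the prolactin gene of the pituitary, measured 3729.5 on heterozygous 3 and 8306 on wild type 1, and 38.8 to 456.1 on the other arrays, so it was high on 1 of the 2 arrays with the highest collagen signal. The neutrophil gene S100a9 measured 37.8 on heterozygous 3 and 42.0 on wild type 2, and 10.1 to 24.2 on the others. Its partner S100a8 was instead highest on heterozygous 2 (87.6, against 62.6 on heterozygous 3 and 58.7 on wild type 2), and the erythroid gene Alas2 on wild type 1 (63.6). The other tested blood gene, Hbb-b2, measured 49.0 on wild type 2 and 45.2 on heterozygous 3, and 24.2 to 35.6 on the other arrays. The part of pituitary tissue or blood in the collagen values was not tested.

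The promoters of Col1a2 and Col3a1 are shown because these genes had the same 3 arrays on top. They are the 250 bases before the annotated start site in RefSeq, build GRCm38.p6, both on the plus strand, at chr6:4505368-4505617 and chr1:45311288-45311537, and 6 of the 10 genes matched an entry. Capitals mark matches to CCAAT (or ATTGG on the other strand) and TATAAA (or TTTATA), motifs of general promoter factors that do not overlap each other here.
Col1a2: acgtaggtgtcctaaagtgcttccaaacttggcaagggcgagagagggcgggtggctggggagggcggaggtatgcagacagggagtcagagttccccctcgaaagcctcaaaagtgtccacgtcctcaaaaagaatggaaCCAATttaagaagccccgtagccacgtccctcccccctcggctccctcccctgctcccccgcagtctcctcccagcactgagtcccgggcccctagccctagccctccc
Col3a1: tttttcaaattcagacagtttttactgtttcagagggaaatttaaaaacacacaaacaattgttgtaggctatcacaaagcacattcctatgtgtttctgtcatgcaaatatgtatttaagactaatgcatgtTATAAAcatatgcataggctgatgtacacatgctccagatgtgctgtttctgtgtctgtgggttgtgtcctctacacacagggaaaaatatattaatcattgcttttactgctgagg
The windows differ in composition. That of Col1a2 has 62.0% G and C, 11 CpG dinucleotides and a CCAAT match that begins 109 bases before the start. That of Col3a1 has 35.2% G and C, 0 CpG dinucleotides and a TATAAA match 117 bases before the start. Over all 32851 windows of this length, 33.8% held CCAAT and 12.4% held TATAAA on either strand, and the medians were 52.4% G and C and 6 CpG dinucleotides. A match is a run of letters and not a measured binding site.

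The small leucine-rich proteoglycans Dcn, Lum and Ogn bind collagen and set the spacing of its fibrils. Dcn (decorin) and Lum (lumican) are neighbours on chromosome 10, and Ogn (osteoglycin) lies on chromosome 13. At 1449368_at, Dcn measured 358.5, 337.2 and 356.2 in heterozygous and 342.5, 392.6 and 458.4 in wild-type brains. Wild type 3 stood highest, the heterozygous brains lay close together, and the genotypes overlapped through wild type 1. The means were 350.6 ± 11.7 and 397.9 ± 58.1 (SD, n = 3 each), and the log2 values differed by -0.17 (SE 0.11, limma adjusted p = 0.956).

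Lum, at 1423607_at, measured 92.5, 61.2 and 103.7 in heterozygous and 72.4, 97.0 and 105.3 in wild-type brains. Heterozygous 2 and wild type 1 were low, and the difference was -0.09 (SE 0.19), with the sign turned without heterozygous 2 (0.10) and without wild type 3 (0.0021). The probe set 1419663_at of Ogn measured 145.7, 101.5 and 123.7 against 127.6, 162.2 and 148.1. Heterozygous 2 was the lowest array for Ogn, as it was for Dcn and Lum, and the genotypes overlapped with a difference of -0.22 (SE 0.15, limma adjusted p = 0.956). The other Ogn probe set, 1419662_at, did not share that order: it measured 134.7, 147.1 and 124 in heterozygous and 118.2, 117.2 and 154.6 in wild-type brains, and its difference was 0.06 (SE 0.14).

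Mgp encodes matrix Gla protein, a secreted inhibitor of calcification. Its single probe set, 1448416_at, measured 420.8, 346.8 and 372.6 in heterozygous and 472.9, 456.4 and 390.5 in wild-type brains. Wild type 1 and 2 were highest, heterozygous 2 lowest, and wild type 3 lay within the heterozygous range. The means were 380.1 ± 37.6 and 439.9 ± 43.6 (SD, n = 3 each), and the log2 values differed by -0.20 (SE 0.11, 95% interval -0.44 to 0.03, limma adjusted p = 0.956), and the two-sided exact permutation p was 0.2.

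Foxc1 is a forkhead transcription factor that the meninges and the skull need to form. At 1419486_at it measured 87.6, 61.1 and 70.8 in heterozygous and 55.9, 56.8 and 52.6 in wild-type brains. Each heterozygous value lay above each wild-type value, although heterozygous 2 exceeded wild type 2 by less than the spread among heterozygous brains. The means were 73.2 ± 13.4 and 55.1 ± 2.22 (SD, n = 3 each), and the log2 values differed by 0.32 (SE 0.16, 95% interval -0.03 to 0.66). The limma adjusted p was 0.956, and the two-sided exact permutation p was 0.1, the minimum possible with 3 brains in each group. Leaving out 1 array at a time gave differences of 0.20 (without heterozygous 1) to 0.42.

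The second Foxc1 probe set, 1419485_at, measured 43.4, 32.1 and 47.8 in heterozygous and 19.0, 38.2 and 29.5 in wild-type brains. Wild type 2 lay above heterozygous 2, so the genotypes overlapped there. The difference was 0.36 (SE 0.21), on the same side as the first, and it was 0.53 when 1 and 0.18 when 64 was added before the logarithm, since the signal is near the dim limit. Both probe sets measure 1 gene in the same 6 brains and are no independent replicates.

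The Foxc1 promoter window is shown because this gene had the clearest separation of the genotypes among the 10. It covers chr13:31806396-31806645 of GRCm38.p6 on the plus strand, from RefSeq, with the same marking of CCAAT and TATAAA.
Foxc1: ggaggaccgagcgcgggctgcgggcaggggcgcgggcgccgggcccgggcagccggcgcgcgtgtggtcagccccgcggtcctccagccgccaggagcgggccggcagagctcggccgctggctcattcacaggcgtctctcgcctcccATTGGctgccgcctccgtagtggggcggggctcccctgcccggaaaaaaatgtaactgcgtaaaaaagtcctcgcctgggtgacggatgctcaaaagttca
It has 70.8% G and C and 29 CpG dinucleotides, more than the Col1a2 and Col3a1 windows. One CCAAT match lies on the minus strand, 101 bases before the start, and no TATAAA was found in this window.

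Slc6a13 and Aldh1a2 represent transport and signalling. Slc6a13 encodes a transporter of GABA and taurine found in the leptomeninges. At 1424338_at it measured 76.2, 80.5 and 89.0 in heterozygous and 89.5, 66.3 and 86.2 in wild-type brains. Wild type 2, one of the arrays with the highest collagen signal, was the lowest here, and the difference was 0.03 (SE 0.15, limma adjusted p = 0.990). It turned to -0.0098 when arrays were centred on their medians, and to -0.03 without heterozygous 3 and -0.09 without wild type 2.

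Aldh1a2 encodes a retinaldehyde dehydrogenase that makes retinoic acid. At 1422789_at it measured 127.1, 132.4 and 145.6 in heterozygous and 154.8, 125.9 and 163.9 in wild-type brains. Wild type 2 was again lowest, wild type 1 and 3 were highest, and the difference was -0.11 (SE 0.13, limma adjusted p = 0.962). Slc6a13 and Aldh1a2 shared the order of the lower arrays: wild type 2 was lowest, then heterozygous 1, then heterozygous 2.

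**Figure D2:**
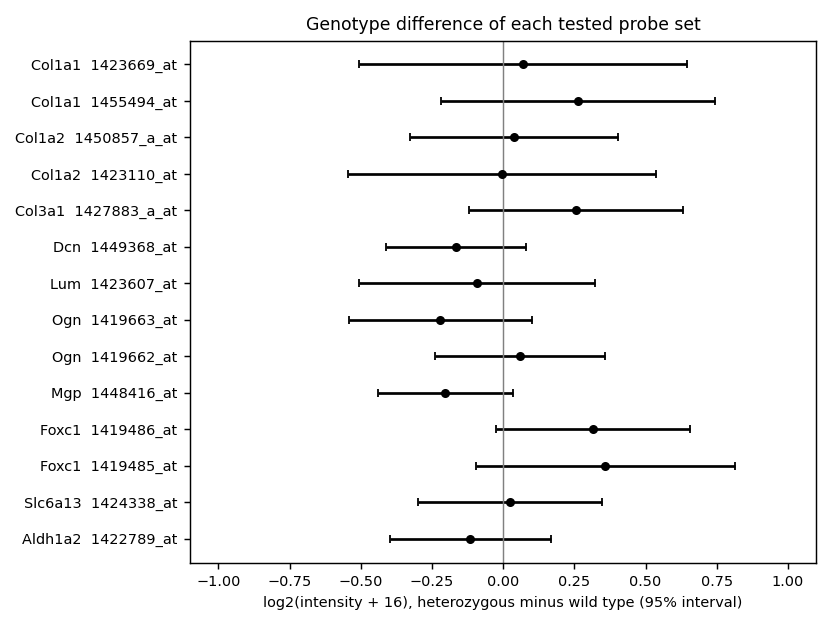
Log2 difference, heterozygous minus wild type, of log2(intensity + 16) for each of the 14 tested probe sets, with limma's 95% confidence interval (n = 3 arrays per genotype). Every interval crosses 0. The highest points are both Foxc1 probe sets, at 0.32 and 0.36, and the lowest is Ogn 1419663_at at -0.22.

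Over the genes together, 0 of the 14 tested probe sets passed the limma threshold, where 0.0148% of all tested probe sets did (4 of 27022). At an unadjusted p below 0.05 the count was 0 of 14 against 4.83% of all. The genotypes did not overlap at 1 of 14, against 10.2% of all tested probe sets. With each gene taken by its brightest tested probe set, 5 of 10 were above 0 (Foxc1, Col3a1, Col1a1, Col1a2 and Slc6a13) and 5 below, where 52.0% of all 13024 genes were above. Their median difference was -0.03, from -0.22 to 0.32, beside 0.007 over all genes. The median was -0.17 without heterozygous 3 and 0.07 without heterozygous 2.

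The test leaves room for moderate differences. The 95% intervals of the 14 probe sets reached down to a ratio of 0.685 (Col1a2 1423110_at) and up to 1.76 (Foxc1 1419485_at) on the log2(intensity + 16) scale, and to 0.633 and 2.30 at the same probe sets with a pseudocount of 1. In whole brain, fewer cells of a type and less RNA per cell cannot be told apart.

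**Figure D3:**
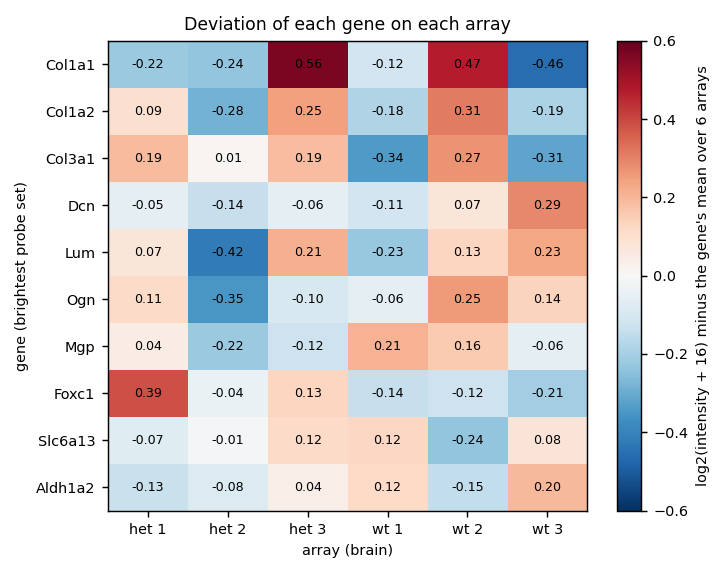
Each of the 10 genes by its brightest tested probe set (rows, grouped by role) on each array (columns), as log2(intensity + 16) minus the gene's mean over the 6 arrays, red above and blue below that mean. Col1a1 stands at 0.56 on het 3 and 0.47 on wt 2, and het 2 holds the lowest value of Col1a2, Dcn, Lum, Ogn and Mgp.

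The 10 genes did not follow 1 profile over the arrays. Their mean deviation from their own average was highest on heterozygous 3 (0.12) and wild type 2 (0.12) and lowest on heterozygous 2 (-0.18). Heterozygous 2 lay below the gene's own average for 9 of the 10 genes and was the lowest array for 5 of them: Mgp, Ogn, Col1a2, Dcn and Lum. The groups by role went apart elsewhere. On wild type 3 the 3 collagen genes averaged -0.32 and the 3 proteoglycan genes 0.22, and on heterozygous 3 the values were 0.33 and 0.02. Each gene's root mean square difference from the mean profile of the 10, to which it contributes itself, was 0.13 (Col1a2) to 0.31 (Col1a1). A gene without any change over the arrays would lie at 0.11, nearer to that mean profile than each of the 10.

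Among 13014 other genes, the 12 nearest to that mean profile over the 6 arrays had root mean square differences of 0.032 to 0.044. In order they were Sf3a3, Wdr45b, Abcb1a, Impa1, Gda, Creb1, Hic2, Lias, Dll1, Irgm2, Dus3l and Mccc1. Abcb1a, an efflux transporter of brain endothelium, is the only one of them in a list used here, and it measured 185.9, 162.4 and 204.1 in heterozygous and 177.5, 191.6 and 172.1 in wild-type brains. Their differences between genotypes lay between -0.05 and 0.02.

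The wider pathways of the 10 genes were then counted in lists, each gene by its brightest tested probe set. Over 17 lists with 177 tested genes, 0 passed the limma threshold (background 0.00768% of genes) and 4 had an unadjusted p below 0.05 (background 4.38%). The genotypes did not overlap for 9 of the 177 genes (5.08%), and for 10.2% of all tested probe sets. The first share counts genes by their brightest probe set and the second counts probe sets, so they are not on the same base. Zic2, Bmp4, Serping1, Kcnj13 and Ckm were higher and Itm2a, Mrc1, Atp2a1 and Slc17a7 lower in heterozygous brains, and none passed the limma threshold. Of 16 other interstitial collagen genes, all tested, 0 passed, 9 were above 0 and 7 below, with a median of 0.04. Col16a1 was at 0.32 (SE 0.18) and Col5a1 at 0.17 (SE 0.15), Col23a1 at -0.33 (SE 0.20) and Col9a3 at -0.33 (SE 0.25). Col6a2, a chain of the beaded-filament collagen VI chosen here after its values were seen, measured 120.0 on wild type 2 and 109.9 on heterozygous 1 but 57.9 on heterozygous 3, unlike type I collagen.

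Genes that process collagen gave 0 passing of 20 tested, with 10 above and 10 below 0 and a median of 0.02. Bmp1, a protease that trims procollagen, was at 0.25 (SE 0.14) and Plod3, a lysyl hydroxylase, at 0.27 (SE 0.15), while the crosslinking enzyme gene Lox was at -0.13 (SE 0.25) and Crtap at -0.07 (SE 0.13). Among other small leucine-rich proteoglycans, 0 of 9 tested passed, 5 were above and 4 below 0, and the median was 0.00. Prelp was at 0.11 (SE 0.16), Nyx at 0.12 (SE 0.21), Aspn at -0.05 (SE 0.19) and Epyc at -0.17 (SE 0.22). Kera and Chad of this list were dim.

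Of the retinoic acid pathway, 0 of 13 tested genes passed, 7 were above and 6 below 0, with a median of 0.05. The nuclear receptor gene Rxra was at 0.18 (SE 0.14), the binding protein gene Crabp1 at 0.27 (SE 0.23), the plasma retinol carrier gene Rbp4 at -0.11 (SE 0.12) and Cyp26b1, which degrades retinoic acid, at -0.15 (SE 0.15). Transporters of GABA, taurine and organic ions had 0 of 10 passing, 5 on each side of 0 and a median of -0.02. Slc22a2 was at 0.19 (SE 0.26), the astrocyte GABA transporter gene Slc6a11 at 0.08 (SE 0.13), Slc22a6 at -0.16 (SE 0.18) and Slc6a20a at -0.20 (SE 0.15).

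Transcription factors and signals of meningeal development gave 0 of 12 passing, 5 above and 7 below 0, and a median of -0.07. Foxd1 was at 0.37 (SE 0.20) and Zic2 at 0.26 (SE 0.15), and Msx2 at -0.22 (SE 0.18). Foxc2, the closest relative of Foxc1, was at -0.26 (SE 0.19), opposite in sign to Foxc1, and neither value passed. Of 28 other tested genes of meninges and fibroblasts, 0 passed, 16 were above and 12 below 0, and the median was 0.06. The matrix gene Fbln2 was at 0.42 (SE 0.25) and Pdgfrl at 0.33 (SE 0.19). The connexin gene Gjb2 was at -0.21 (SE 0.14) and Emp1 at -0.59 (SE 0.29). Emp1 measured 16.7, 3.75 and 33.4 in heterozygous and 26.8, 37.5 and 31.1 in wild-type brains. Its signal on heterozygous 1 and 2 was thus below the dim limit of 18.4.

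Fbln2 measured 35.4, 23.7 and 62.3 in heterozygous and 20.5, 34.3 and 20.2 in wild-type brains. Pdgfrl measured 37.7, 29.5 and 42.0 against 22.1, 34.9 and 21.0. Both were highest on heterozygous 3, heterozygous 1 and wild type 2, the arrays on top for Col1a2 and Col3a1, as were Igf2 and Igfbp5. Thus 4 of the 28 genes had these 3 arrays on top, beside 4.17% of all tested probe sets. The 3 arrays were singled out after the values were seen. Fbln2 and Pdgfrl are named for their high moderated t, which favours genes high on heterozygous arrays. A shared pattern was not tested.

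**Figure D4:**
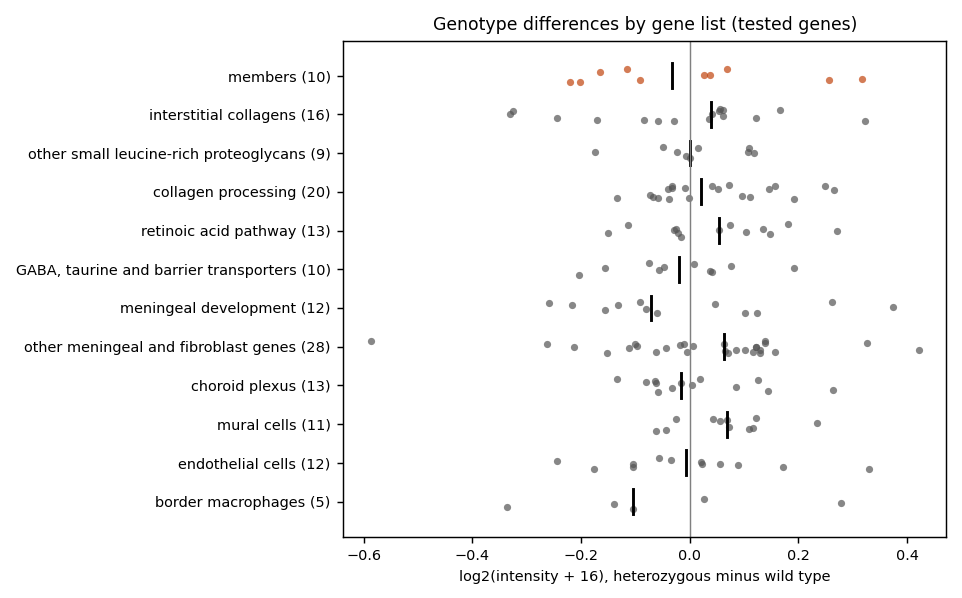
Log2 difference, heterozygous minus wild type, of log2(intensity + 16) for each tested gene (1 point per gene, by its brightest tested probe set) in the 10 meningeal and fibroblast genes (red, labelled members) and 11 other gene lists (grey); black bars are list medians and numbers in brackets count tested genes. The medians lie between -0.10 (border macrophages) and 0.07 (mural cells), and no point passed the limma threshold.

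Markers of neighbouring cell types were read beside these values. Choroid plexus genes had 0 of 13 tested passing, 6 above and 7 below 0, and a median of -0.02. Their summed signal over 14 genes ranged from 10233 to 12936 in heterozygous and from 9949.8 to 11448 in wild-type brains. Most of it was Ttr alone, at 9033 to 11664 in heterozygous and 8719 to 10231 in wild-type brains. Kcnj13 was at 0.26 (SE 0.12), Ttr at 0.13 (SE 0.11), Otx2 at -0.08 (SE 0.16) and Clic6 at -0.13 (SE 0.11). Mural cell genes had 0 of 11 passing, 8 above and 3 below 0, and a median of 0.07. Their summed signal ranged from 2463 to 2709 in heterozygous and from 2401 to 2744 in wild-type brains, with Higd1b at 0.23 (SE 0.19), Acta2 at 0.11 (SE 0.12), Cspg4 at -0.04 (SE 0.20) and Rgs5 at -0.06 (SE 0.14). Wild type 2, high for collagen, had the lowest mural sum. Endothelial genes had 0 of 12 passing, 6 on each side of 0 and a median of -0.01, with sums of 3932 to 4192 and 4150 to 4373. Kdr was at 0.33 (SE 0.19), Cdh5 at 0.17 (SE 0.22), Flt1 at -0.24 (SE 0.20) and Itm2a at -0.11 (SE 0.08).

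Macrophages of the brain's borders live among the meningeal fibroblasts. Of their 8 markers, Lyve1, Cd163 and Ms4a7 were dim, and 0 of the 5 tested passed, with 2 above and 3 below 0. The sum over all 8 was 246.3 to 278.5 in heterozygous and 279.8 to 335.1 in wild-type brains, the only sum of the 17 lists without overlap. The gap lay between 278.5 on heterozygous 1 and 279.8 on wild type 1, and the sum includes the 3 dim genes. The mean log2 deviation of the 5 tested genes, which gives each gene equal weight, did overlap (-0.08 to 0.01 against -0.07 to 0.18). Mrc1, the mannose receptor gene, measured 42.7, 42.0 and 48.9 in heterozygous and 55.4, 67.5 and 58.6 in wild-type brains. Its genotypes did not overlap, and its difference of -0.34 (SE 0.15) did not pass (limma adjusted p = 0.956). Pf4 was at -0.14 (SE 0.16), Cbr2 at 0.03 (SE 0.22) and Stab1 at 0.28 (SE 0.21). The part of macrophage content in the values of the 10 genes was not tested.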

How the data were processed

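Whole-brain RNA of 6 mice was hybridised to 6 Affymetrix arrays, 3 per genotype, after labelling with an oligo(dT) primer, per the labels' protocols. The deposited values are linear probe-set intensities, scaled by the authors so that the mean of the central 96% of values is 150.0 on every array; the labels do not name the summarising software. Probe sets were named from the platform annotation, with symbols updated by Entrez identifier (34741 of 34945 matched a RefSeq table of GRCm38.p6, used for names, chromosomes and neighbours). Probe sets with several genes (932) or none named here (9160), and 64 controls, got no gene. This leaves out the brightest adult globin probe sets, which are annotated to several genes.

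Intensities were transformed as log2(value + 16), 18015 dim probe sets were removed, and limma 3.58.1 (R 4.3.3; lmFit, eBayes with trend) compared genotypes without covariates. Exact permutation tests were two-sided. The steps were tested on simulated data. Named are all probe sets of the 10 genes, the 2 highest and 2 lowest genes of each list by moderated t, and the 12 genes nearest the mean profile. The genes and lists were chosen with earlier results of these data known. Alternatives were pseudocounts of 1 and 64, quantile normalization, median centring, no or a stricter filter, other moderation, a replicate block, other probe sets and leaving out each array.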

Additional observations from a re-analysis of the deposited data

How the results depend on the processing

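No probe set of the 10 genes and no gene of the 17 lists passed the limma threshold under any alternative run, and the lowest limma adjusted p of the 10 genes was 0.711. Both other pseudocounts, quantile normalization and median centring can move a difference, and 1 of these 40 differences changed sign: Slc6a13, to -0.0098 with median centring. The other 5 settings leave each difference equal by construction and bear only on its test. Of 60 with 1 array left out, 10 changed sign, within ranges of -0.20 to 0.32 for Col1a1, -0.076 to 0.20 for Col1a2 (negative without heterozygous 1 or 3 or wild type 1 or 3), -0.23 to 0.10 for Lum and -0.087 to 0.093 for Slc6a13. Among other probe sets of a gene, Ogn 1419662_at (0.058) and Col1a2 1423110_at (-0.0039) had the other sign; the cause was not tested. The median of the 10 genes ranged from -0.17 to 0.065 with 1 array left out. Over all probe sets, 4 were called, 1 without a dim filter, 1 without the intensity trend, and 1 (without heterozygous 2) to 14 (without heterozygous 1) with 1 array left out, 2 without heterozygous 3 or wild type 3. The titles number the arrays within each genotype, except the first heterozygous array, which was taken as 1. Deviations from the genotype mean correlated at 0.082, 0.202 and -0.018 between same-numbered arrays. Between arrays of different number they correlated at -0.156 to 0.085. With so few arrays these values cannot settle whether the numbers pair the brains. With a replicate block 5 probe sets were called over all, none of the 10 genes. In this balanced design the block cannot move a difference or the median of -0.03. The widest intervals were those of Col1a1 1423669_at (SE 0.26) and Col1a2 1423110_at (SE 0.25).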

Other observations

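Tissues that can stay on a dissected brain were read from further lists. Of 4 tested skeletal muscle genes, 2 were above and 2 below 0, with a median of 0.10. Their mean log2 deviation did not overlap between genotypes, the only such case among the 17 lists. It was 0.31, -0.0354 and 0.02 in heterozygous and -0.19, -0.0358 and -0.07 in wild-type brains. The gap was thus only that between -0.0354 on heterozygous 2 and -0.0358 on wild type 2. The summed signal of all 10 muscle genes did overlap, at 213.7 to 381.5 in heterozygous and 201.7 to 253.0 in wild-type brains. Ckm, the muscle creatine kinase gene, measured 36.9, 26.6 and 29.7 in heterozygous and 15.5, 6.07 and 15.3 in wild-type brains, a difference of 0.75 (SE 0.21) without overlap that did not pass (limma adjusted p = 0.956). The wild-type signal of Ckm was below the dim limit of 18.4, so it passed the filter only through its heterozygous values. The mean deviation of the list includes Ckm, and its part in that separation was not tested. Acta1 was at 0.31 (SE 0.18), Atp2a1 at -0.11 (SE 0.18) and Actn3 at -0.16 (SE 0.23), and the other 6 muscle genes were dim. Of 4 tested bone and cartilage genes, 2 were on each side of 0 (median 0.07), with Acan at 0.26 (SE 0.18), Sp7 at 0.18 (SE 0.19), Alpl at -0.04 (SE 0.16) and Dmp1 at -0.05 (SE 0.13); Ibsp, Col2a1, Col10a1 and Phex were dim. The only tested gene of peripheral nerve, Drp2, was at 0.06 (SE 0.10).

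Pituitary genes differed widely between single arrays. All 6 tested had differences below 0 (median -1.44), and wild type 1 held the highest signal of Prl, Pomc and Cga: there they measured 8306, 4380 and 889.5, and 38.8, 62.2 and 3.03 on heterozygous 2. Differences were -2.16 (SE 1.44) for Prl, -2.09 (SE 1.03) for Pomc, -1.07 (SE 1.22) for Cga and -0.02 (SE 0.35) for Lhb. The size of these differences rested largely on that array. Without wild type 1, Prl was at -0.76 (SE 1.34), Pomc at -0.41 (SE 0.25) and Gh at -0.14 (SE 1.29, from -1.81 with it). All 3 stayed below 0 and none passed the limma threshold, and Cga, Lhb and Tshb were dim. Of 4 tested blood genes, 2 were on each side of 0 (median 0.00): S100a8 at 0.23 (SE 0.37), S100a9 at 0.09 (SE 0.30), Alas2 at -0.09 (SE 0.26) and Hbb-b2, whose near-identical copies may share its signal, at -0.19 (SE 0.22). Of the 9 tested brain tissue markers, 6 were above and 3 below 0 (median 0.04), with Aldoc at 0.16 (SE 0.09), Map2 at 0.09 (SE 0.08), Gfap at -0.40 (SE 0.20) and Slc17a7 at -0.27 (SE 0.09), and none passed.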
